A study of Heliconius melpomene cythera and Heliconius melpomene rosina with 32 samples.

Results

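The anterior hindwing of *Heliconius melpomene* at 70% of pupal development was compared between the subspecies cythera and rosina. Its members were chosen by their labels, as the libraries of this wing region at this stage: 8 of the 32 libraries of the series, of which 7 entered the test. RNA was sequenced from pupal wings of captive butterflies, and every animal, at 50% or 70% of development, gave a library of this region and a second library of the remaining wing (forewing and posterior hindwing). The subspecies differ in structural colour: cythera, an Ecuadorian form, reflects blue from wing areas that in the Panamanian rosina are black without a sheen. The cythera group was individuals 9 and 11, which were male, and 10 and 12, which were female. The rosina group was individuals 14, 15 and 16, all male. Individual 13, a male labelled rosina, grouped with cythera and was left out, and the result with it is given beside the main one. All animals were fed on the same host plant and none was treated. Subspecies, captive stock and geographic origin cannot be told apart in this design.

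Butterfly wing colour comes from flat scales that are each made by a single cell of the pupal wing. Black comes from pigment in the scale, whereas iridescent blue in *Heliconius* comes from layered ridges on its upper surface that reflect light, and these ridges are built from cuticle while the pupal scale cell matures. The anterior hindwing is the androconial region, which carries scales of another type, and androconia are known in male butterflies as scales that release pheromone. Pieces of wing also hold epithelial cells, tracheae, nerves and blood cells, and in such bulk tissue fewer cells of a type cannot be told apart from less RNA per cell. The row IDs gave no gene names, so the tissue could not be checked against marker genes. Genes are named below by the number of the assembled locus (MSTRG) and, where the table gives one, by the annotated ID (HMEL). No function is given for them, because the sources used here did not annotate these IDs.

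The 8 libraries held 21141907 to 39998474 counts, 21141907 to 31901484 in cythera and 29869331 to 39998474 in the 3 rosina libraries. The 10 most abundant genes took 31.7 to 38.3% of the counts. Levels are given as CPM, which is the count scaled to library size, here with TMM factors over all 32 libraries. Where a library had no counts for a gene, the upper limit was set at 3 counts, or 0.0737 to 0.142 CPM here, and such limits cover counting error only. Levels are compared between libraries and not between genes, because transcript lengths were not used.

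In an MDS of the 8 libraries, which places libraries by the log2 fold changes of their 500 most different genes, dimension 1 held 26.0% of the variance. The 4 cythera libraries lay between 0.823 and 1.608 on it. Individuals 14, 15 and 16 lay at -1.832, -2.13 and -2.035. Individual 13 lay at 0.888, within the cythera range and far from the other animals with its label. Over all genes every library lay closer to 0, and individual 13, at 0.267, was again within the cythera range (0.209 to 0.484), with the 3 rosina libraries between -0.646 and -0.497.

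**Figure D1:**
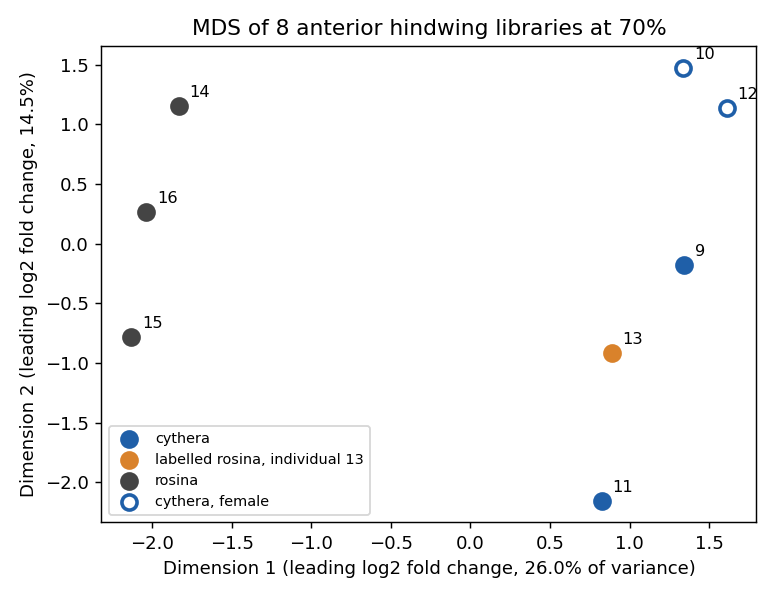
MDS of the 8 anterior hindwing libraries at 70%, with dimension 1 on the x axis and dimension 2 on the y axis, both as leading log2 fold change. Numbers are individuals and open circles are females. The 3 rosina libraries lie at or below -1.832 on dimension 1, and individual 13 lies at 0.888 among the cythera libraries.

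Of 13087 genes tested, 50 were differentially expressed (DE) at a Benjamini-Hochberg adjusted p (FDR) under 0.05 in edgeR's quasi-likelihood test, which was 0.382% of them. Of these, 30 were higher in cythera (0.229% of the genes tested) and 20 were lower (0.153%). The DE genes ranged from loci with many reads in one subspecies and almost none in the other to annotated genes that were well read in both and differed by a log2 fold change as small as -0.97. All 50 had groups that did not overlap in CPM, as did 1796 of all genes tested (13.7%). The list sat close to its threshold, with 22 of the 50 genes sharing an FDR of 0.0486, the next gene at 0.0529 and 296 genes under 0.1. Leaving out any library shortened it, to 11 genes without individual 9, 17 without 10, 15 without 11, 9 without 12, 10 without 14, 17 without 15 and 30 without 16. In all 7 of these fits 5 genes were DE, and 24 were DE in none of them. An exact permutation test of a single gene with 4 against 3 libraries has 35 regroupings. Its two-sided p, if taken as the doubled one-sided p, cannot go below 0.0571. With individual 13 kept as labelled, 0 of 12296 genes (0%) were DE. The smallest FDR was then 0.0678, and 983 genes had an unadjusted p under 0.05. The filter of that fit kept all 30 of the genes higher in cythera but only 8 of the 20 lower, so the rest were not tested in it.

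The 5 genes that were DE whichever library was left out were nearly all-or-none between the subspecies. The locus with the smallest p, MSTRG.1708, had 1105, 1705, 2092 and 2631 counts in cythera individuals 9 to 12, or 52.33, 62.31, 73.97 and 90.88 CPM. In rosina individuals 14 to 16 it had 2, 0 and 1 counts. Over the pooled counts this was a ratio of 2518, with an exact 95% counting interval of 861.1 to 12210, and the FDR by edgeR was 0.00048. Individual 13 had 2457 counts, within the cythera range. The converse was seen at MSTRG.9411 (HMEL004480g1), which had 0 counts in all 4 cythera libraries and 74.3, 82.0 and 79.5 CPM in rosina. Its level was 78.6 ± 3.93 CPM (SD, n = 3) in rosina, at least 682-fold higher than the 3-count floor of the cythera libraries (FDR by edgeR 0.00115). Individual 13 also had 0 counts there.

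The other loci of this kind were higher in cythera. MSTRG.18840 had 22.6, 32.9, 38.1 and 33.4 CPM in cythera and 0 counts in every rosina library, at least 370-fold higher (FDR by edgeR 0.00158). MSTRG.18837 had 21.9, 25.8, 21.5 and 21.8 CPM in cythera, against 0, 4 and 0 counts in rosina (FDR by edgeR 0.00817). Individual 13 lay below the cythera range at both, with 21.5 CPM at MSTRG.18840 and 14.2 CPM at MSTRG.18837. The annotated gene MSTRG.25 (HMEL002147g1) had 39.5, 45.9, 51.8 and 41.0 CPM in cythera and 0, 0 and 8 counts in rosina (FDR by edgeR 0.00817). Individual 13 had 36.6 CPM of it. At all 5 of these loci individual 13 was thus nearer the cythera level and away from the 3 rosina animals.

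**Figure D2:**
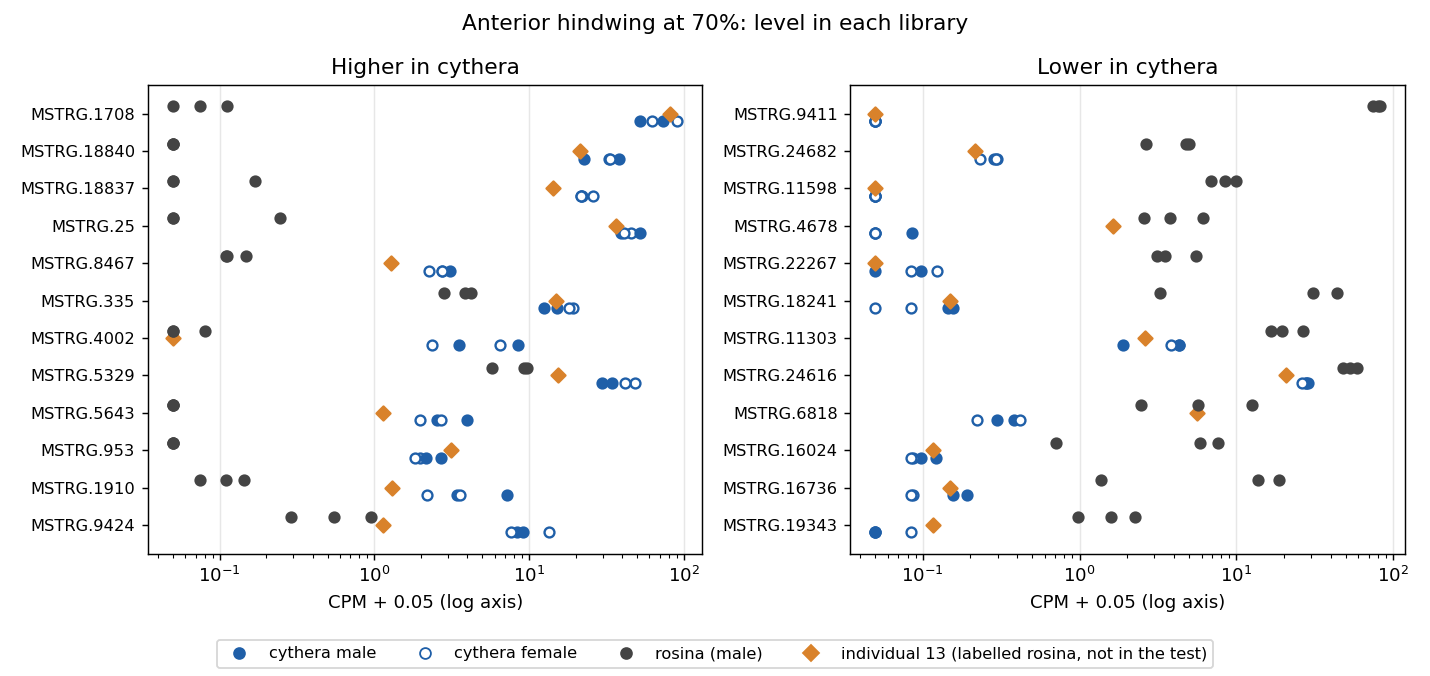
CPM plus 0.05 on a log axis in each anterior hindwing library at 70%, for the 12 DE genes with the smallest p that were higher in cythera (left) and the 12 that were lower (right). Blue is cythera, with females open, grey is rosina, and the orange diamond is individual 13, which did not enter the test. Blue and grey points do not overlap at any of these 24 genes, and the diamond lies within the rosina range at MSTRG.4002 and MSTRG.6818.

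Loci read in only one subspecies were frequent in the list. At most 3 counts in every library of one subspecies were found at 264 of the genes tested (2.02%), of which 184 were read in cythera and 80 in rosina. Among the 50 DE genes there were 25 loci of this kind, with 15 read in cythera and 10 in rosina. All of them passed the filter only through the subspecies that had the reads. The filter asked for enough counts in 3 libraries, which is 3 of 4 in cythera but all 3 in rosina. The numbers read in each subspecies are therefore not on an equal footing. Of these 25, 20 had no annotated ID, as did 219 of the 264 (83.0%). These reads may be shared with similar, overlapping or antisense loci, since the strand setting of the counting was not given, and the part of shared reads in these differences was not tested. Over all genes, 60% of the DE genes carried no annotated ID, against 29.2% of the genes tested. Among unannotated loci 19 were higher and 11 lower of 3827 tested (0.784%), and among annotated genes 11 were higher and 9 lower of 9260 (0.216%). The median size of the log2 fold change, over genes tested whether DE or not, was 0.71 for the unannotated loci and 0.26 for the annotated genes. Levels were not matched between these classes, and the part of low counts in this gap was not tested.

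Besides those named above, several loci were read in cythera only, at low levels. MSTRG.4002 had 74, 177, 240 and 67 counts in cythera and 0, 1 and 0 in rosina, a pooled ratio of 559.5 with a counting interval from 100 to 22140 (FDR by edgeR 0.0316). Individual 13 had 0 counts there and so resembled its label. MSTRG.5643 had 53, 73, 111 and 56 counts in cythera and 0 in each rosina library, at least 32.1-fold higher. MSTRG.953 had 52 to 60 counts in cythera and 0 in rosina, at least 24.8-fold higher, and individual 13 was above every cythera library with 93. These 3 loci had the same FDR, and individual 13 sided with rosina at the first, lay between the groups at the second and beyond cythera at the third. MSTRG.8467 (2.19 to 3.03 CPM against 0.0602 to 0.0982), MSTRG.1910 (2.14 to 7.21 against 0.0246 to 0.0936), MSTRG.2789 (2.34 to 8.10 against 0.0491 to 0.121) and MSTRG.9424 (7.63 to 13.5 against 0.241 to 0.909) were higher in cythera with traces in rosina. Of 2 further loci, named after their values were seen, MSTRG.25598 and MSTRG.10010 had 13.1 and 14.8 CPM in individual 9, 3.51 to 5.23 CPM in the other cythera animals and 0 counts in rosina and in individual 13.

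Loci read mainly in rosina were fewer, under a filter that was harder for them to pass. MSTRG.11598 had 316, 279 and 279 counts in rosina and 0 in cythera and in individual 13, at least 72.6-fold higher in rosina (FDR by edgeR 0.0182). MSTRG.22267 had 5.52, 3.07 and 3.46 CPM in rosina and at most 2 counts in a cythera library (FDR by edgeR 0.0260). MSTRG.4678 had 119, 203 and 103 counts in rosina and 0, 0, 1 and 0 in cythera, a pooled ratio of 423.9 with a counting interval from 75.67 to 16780. MSTRG.19343 (HMEL033779g1), with 71, 51 and 38 counts in rosina and 0, 0, 0 and 1 in cythera, had a ratio of 159.6 and an interval from 28.23 to 6342. Individual 13 had 48 counts of MSTRG.4678 in the anterior hindwing, between the groups, and 0 counts of it in its forewing library. MSTRG.24682 was lower in cythera, at 0.183 to 0.248 CPM against 2.59, 4.73 and 4.94.

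The rosina animals themselves differed widely at part of these loci. MSTRG.16024 (HMEL016538g1) had 187, 22 and 311 counts in individuals 14, 15 and 16, and 1 or 2 in each cythera library. MSTRG.16736 had 436, 44 and 760 counts in the same order, and 1 to 3 in cythera. Individual 15 was thus far below both other rosina animals, as it also was at MSTRG.171 and MSTRG.4122, which were named after their values were seen. MSTRG.18241 showed another order, with 990, 1458 and 131 counts in rosina and 0 to 3 in cythera, so that individual 16 was low. MSTRG.3173, an assembled locus the study names, had the same order, with 1842, 2906 and 25 counts in rosina and 2, 0, 3 and 0 in cythera. MSTRG.3173 did not pass the test at 70% (log2 fold change -9.90 ± 1.74 (SE), FDR by edgeR 0.0691). In the anterior hindwing at 50%, from other animals, it passed in the same direction (log2 fold change -12.84 ± 2.29 (SE), FDR by edgeR 0.0407). Of the fits at 70% that each left out 1 library, it passed only in the one without individual 16 (-10.47, FDR by edgeR 0.00398). That fit drops the rosina animal with the fewest counts. In the others the FDR by edgeR reached 0.144. At MSTRG.6818 the rosina animals had 2.43, 12.5 and 5.67 CPM and cythera 0.173 to 0.366, and individual 13 had 5.60 CPM, within the rosina range.

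Of the annotated DE genes, 15 had more than 3 counts in at least 1 library of each subspecies. Their log2 fold changes ran from 2.06 to 9.15 in the 10 higher in cythera and from -6.33 to -0.97 in the 5 lower. The far ends were genes with few reads in one subspecies. These were MSTRG.25 (9.15), with 0, 0 and 8 counts in rosina, and MSTRG.4122 (-6.33), with 4, 1, 2 and 3 in cythera. Those of the 15 with at least 39 counts in every library include the following. MSTRG.335 (HMEL038079g1) had 15.2, 19.2, 12.5 and 18.0 CPM in cythera and 4.15, 3.80 and 2.78 in rosina, with means of 16.2 ± 2.98 (SD, n = 4) and 3.57 ± 0.713 (SD, n = 3). Its log2 fold change was 2.16 ± 0.24 (SE, FDR by edgeR 0.0260), and individual 13 had 14.8 CPM, within cythera. MSTRG.5329 (HMEL008925g1) had 34.6, 48.2, 29.6 and 42.0 CPM in cythera and 5.71, 9.67 and 9.23 in rosina (log2 fold change 2.21 ± 0.26, FDR by edgeR 0.0316). Individual 13 lay between the groups, at 15.5 CPM. MSTRG.2104 (HMEL033177g1) had 7.53 to 23.9 CPM in cythera and 1.11 to 1.56 in rosina, with individual 13 within cythera at 14.3 (log2 fold change 3.36 ± 0.42, FDR by edgeR 0.0348). The smallest difference of the list was at MSTRG.24616 (HMEL011458g2), with 27.7, 27.7, 28.5 and 26.4 CPM in cythera and 52.8, 48.0 and 59.0 in rosina. It was lower in cythera by a log2 fold change of -0.97 ± 0.13 (FDR by edgeR 0.0413), and individual 13 was lower still at 20.8 CPM. In the unannotated MSTRG.11303, cythera had 1.85, 4.24, 4.28 and 3.80 CPM and rosina 16.6, 26.7 and 19.5 (log2 fold change -2.58 ± 0.33, FDR by edgeR 0.0348). In a fit limited to the 9629 genes with at least 10 counts in each library, no gene passed (smallest FDR by edgeR 0.0634, 1102 genes at an unadjusted p under 0.05).

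Detoxification enzymes and chemosensory receptors were the only families whose rows carry a hand-given name. Glutathione transferases (GST) join glutathione to reactive compounds, UDP-glycosyltransferases (UGT) add sugars to small lipophilic molecules including pigments and plant toxins, and gustatory (Gr) and ionotropic (IR) receptors detect chemicals. Of 188 such rows 47 were tested, 21 GST, 16 UGT, 4 Gr and 6 IR, and 0 were DE by edgeR, 6 (12.8%) having an unadjusted p under 0.05, against 13.8% of all genes tested. The member with the smallest p was HmelGSTo6 (MSTRG.7962), with 36.3, 33.0, 33.5 and 33.8 CPM in cythera and 22.1, 17.2 and 16.4 in rosina. Its groups did not overlap, and its log2 fold change was 0.86 ± 0.15 (FDR by edgeR 0.0681), while DESeq2 gave an FDR of 5.27e-05, and in the forewing and posterior hindwing of the same animals it passed by edgeR (FDR 0.0348). Individual 13 had 23.7 CPM, between the groups and near rosina. HmelUGT40Z2 (MSTRG.10041) had 1.65 to 23.4 CPM in cythera and 39.4 to 142.3 in rosina (log2 fold change -3.35 ± 0.95, FDR by edgeR 0.1797, by DESeq2 0.00224). HmelUGT46E1 (MSTRG.22703) had 35, 101, 92 and 0 counts in cythera and 0, 0 and 4 in rosina (FDR by edgeR 0.230, by DESeq2 0.0144), and at 50% it had 17.5 to 193.4 CPM in cythera and 46.3 to 105.4 in rosina. HmelUGT42B3 (MSTRG.18461) had 13.9 to 21.5 CPM in cythera and 18.1 to 34.3 in rosina, so the groups overlapped (FDR by edgeR 0.273). HmGr52_1 (MSTRG.12141) had 6 to 14 counts in cythera and 0, 0 and 5 in rosina (FDR by edgeR 0.316).

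Sex differed between the groups, because rosina was all male. A fit of males only called 3 of 13861 genes (0.0216%) by edgeR, with 1414 at an unadjusted p under 0.05. MSTRG.1708 (FDR by edgeR 0.0161) and MSTRG.9411 (0.0144) passed in it. The third gene, MSTRG.7324, was not DE with both sexes (FDR by edgeR 0.966). It had 0.379 and 0.354 CPM in the cythera males 9 and 11, 34.5 and 33.3 in the cythera females 10 and 12, 16.3, 24.2 and 18.3 in the rosina males, and 1.06 in individual 13. The locus was thus low in cythera males alone among the groups, and individual 13 was near them. With a sex term in the model 7 genes were DE, 6 of the 50 and MSTRG.7324. With only the female cythera animals 26 were DE, 6 of them among the 50. That fit set females against the all-male rosina group, so sex and subspecies cannot be told apart in it.

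Within cythera, 2 of 12967 genes (0.0154%) differed between the sexes by edgeR, MSTRG.7324 and MSTRG.20567. The latter had 112.2 and 99.5 CPM in the 2 females and at most 0.250 in each of the 6 animals labelled male, individual 13 included. The cythera sexes did not overlap at 18 of the 50 DE genes (36%), and at 38.0% of all genes tested. In 3 of the DE genes with the largest such gap, cythera males had the higher level, at MSTRG.2789 (5.26 and 8.10 CPM in males, 2.34 and 2.35 in females), MSTRG.24796 (0.900 and 0.707 against 0.329 and 0.276) and MSTRG.18241, where these were at most 3 counts. None of the 36 DE genes tested for sex in cythera passed that test, the smallest FDR by edgeR being 0.445.

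MSTRG.25003 (HMEL007282g1) was the DE gene with the smallest p for an interaction with stage. At 50% it had 1282 to 2786 CPM in all 8 anterior hindwing libraries, and the subspecies overlapped. At 70% it had 25.6, 72.7, 36.9 and 94.9 CPM in cythera and 2.53, 3.19 and 5.97 in rosina, with both cythera females above both cythera males. Individual 13 had 2.58 CPM, within the rosina range and unlike its position at the 5 all-or-none loci above. The log2 fold change at 70% was 3.85 ± 0.56 (FDR by edgeR 0.0486), and it was 3.02 in males only (FDR by edgeR 0.191). At 50% it was -0.41 ± 0.27 (FDR by edgeR 0.562). The interaction also had the smallest p of all genes tested for it, with a difference of 4.31 between the log2 fold changes, but did not pass over 16568 genes (FDR by edgeR 0.121). With individual 13 in its labelled group it was the 1 gene that passed (4.43, FDR by edgeR 0.0253). Rosina had both sexes at 50% but only males at 70%, so stage and sex make-up cannot be told apart in this interaction. The forewing and posterior hindwing of the same animals at 70% had 20.03 to 80.34 CPM in cythera and 6.31 to 11.3 in rosina.

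**Figure D3:**
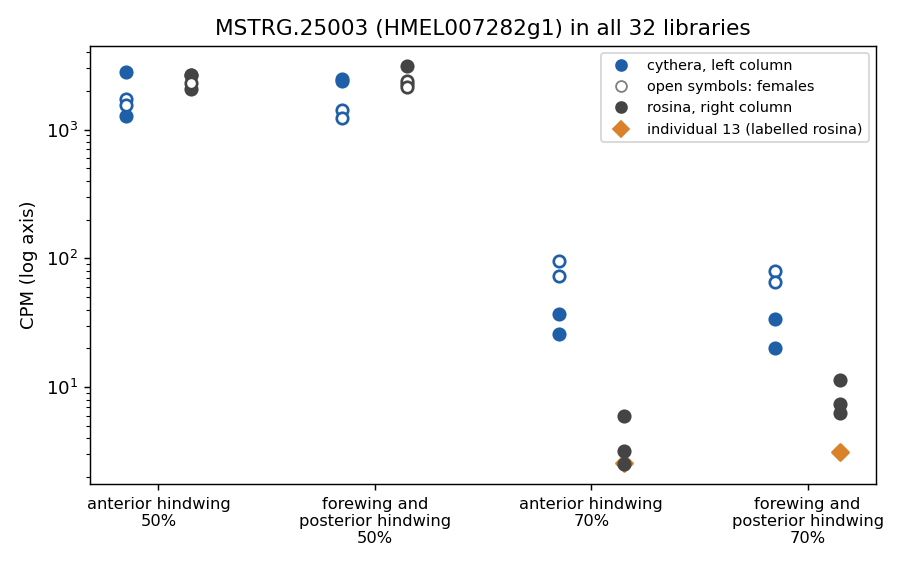
CPM of MSTRG.25003 on a log axis in all 32 libraries, by wing region and stage, with cythera on the left and rosina on the right of each pair and females as open symbols. All anterior libraries at 50% lie between 1282 and 2786 CPM. At 70% the cythera anterior libraries lie between 25.6 and 94.9 CPM and the rosina ones between 2.53 and 5.97, with individual 13 (orange diamond) at 2.58.

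The same contrast at 50% used other animals, 4 of each subspecies, and called 185 of 13250 genes (1.40%). Both subspecies had males and females in equal numbers at 50%, whereas rosina at 70% was all male. A change of the subspecies difference with stage therefore cannot be told apart from a change in sex make-up. Of the 50 genes DE at 70%, 34 were tested there, 32 had the same direction, and 14 passed in that direction (41.2%). Over the 11705 genes tested at both stages, 61.9% had the same direction and 1.03% passed at 50%. At 25 of the 50 the groups did not overlap at 50% in the same direction, as at 7.01% of all genes tested at 70%. The 2 with the opposite direction were MSTRG.25003 and MSTRG.16495, neither of which passed at 50%.

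Examples show how levels and subspecies differences moved with stage. MSTRG.9411 had 0 counts in all 4 cythera libraries at 50% as well, against 45.2 to 216.7 CPM in rosina (FDR by edgeR 0.0101). MSTRG.25 had 84.5 to 91.01 CPM in cythera at 50% and at most 0.864 in rosina (FDR by edgeR 0.0208). MSTRG.1708 had 1.43 to 12.5 CPM in cythera at 50% and 0 counts in rosina (FDR by edgeR between subspecies 0.0269). These cythera levels were below those at 70%, but a change with stage within a subspecies was not tested for any gene here. MSTRG.5329 had 1.83 to 3.46 CPM in cythera and 0.105 to 0.563 in rosina at 50%, lower in both subspecies than at 70%. Its difference between the subspecies at 50% just missed the threshold (log2 fold change 2.86 ± 0.55, FDR by edgeR 0.0503). MSTRG.18840 was not all-or-none at 50%, where cythera had 6.07, 5.92, 0 and 0.646 CPM and rosina 0 to 0.444. MSTRG.11598 had 5.63 and 6.80 CPM in rosina individuals 5 and 7 at 50%, 0 and 0.121 in 6 and 8, and at most 0.122 in cythera. At 4 loci, MSTRG.4002, MSTRG.5643, MSTRG.1910 and MSTRG.2789, no anterior library at 50% had more than 6 counts, and these were read at 70% in cythera. The interaction of subspecies with stage was past the threshold for 0 of 16568 genes (0%) by edgeR, with 1226 at an unadjusted p under 0.05, of which 14 were among the 50. The gene with the smallest p in the other direction was MSTRG.9284 (HMEL006686g1), at 19.3 to 34.3 CPM in cythera and 49.1 to 127.4 in rosina at 70%, against 11.6 to 23.9 and 7.96 to 11.5 at 50% (difference of log2 fold changes -2.45, FDR by edgeR 0.265).

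**Figure D4:**
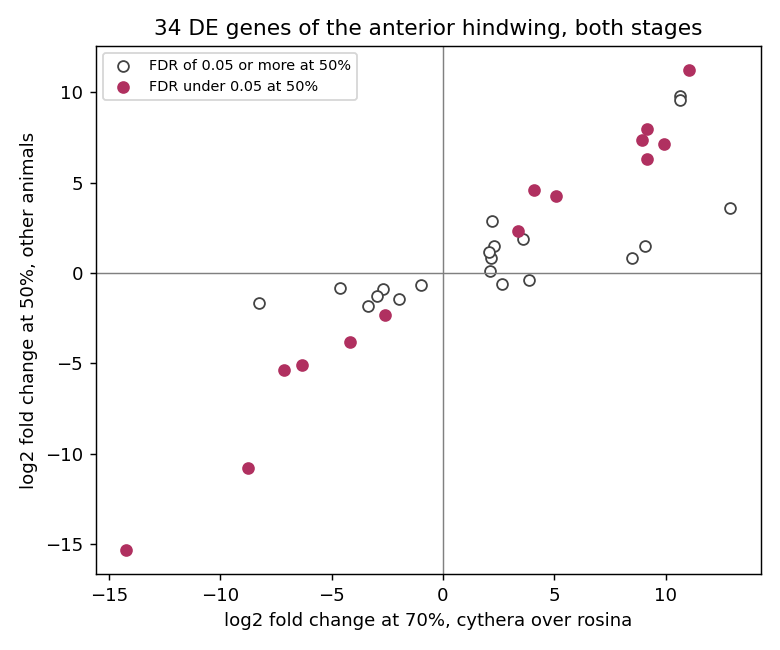
Fitted log2 fold change of cythera over rosina at 70% (x axis) and at 50% in other animals (y axis) for the 34 DE genes that were tested at both stages. Filled points passed at 50% (14 genes). Of the 34 points, 32 lie in the quadrants of equal direction, and values far from 0 belong to loci with few or no counts in one subspecies, for which the fitted size is not a bound.

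The forewing and posterior hindwing libraries came from the same 7 animals, so they are no independent test. There 31 of 12907 genes (0.240%) were DE, and 18 were shared, which was 36% of the 50 and 58.1% of the 31. All 50 had the same direction there and 49 an unadjusted p under 0.05, which 12.7% of all genes tested in that tissue had. MSTRG.9411 had 0 counts in cythera in that tissue too and 87.5, 85.8 and 100.3 CPM in rosina, and MSTRG.18840 had 20.7 to 37.5 CPM in cythera and 0 counts in rosina. The interaction of subspecies with wing region, with animals as a block, was past the threshold for 0 of 15224 genes (0%) by edgeR. In that test 654 genes had an unadjusted p under 0.05, including 6 of the 50, and the smallest FDR was 0.1996. That FDR was shared by MSTRG.11075 (HMEL006533g2) and MSTRG.6719 (HMEL037183g1). MSTRG.11075 had 30.5, 16.4 and 16.8 CPM in the anterior hindwing of rosina and 7.87, 4.55 and 5.03 in the rest of the wing of the same animals. Its cythera levels were 1.93 to 16.7 CPM in the anterior hindwing and 2.48 to 20.2 in the rest. MSTRG.6719 had 0 in the anterior hindwing of the 3 rosina animals and 0, 7.77 and 5.55 CPM in the rest of their wings. In the cythera males 9 and 11 it had 3.27 and 5.73 CPM in the anterior hindwing and 3.75 and 6.07 in the rest. It was 0 in both tissues of both cythera females.

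Over the 50 DE genes, individual 13 was nearer on the log2 scale to the cythera mean at 36. Among the 30 higher in cythera it lay within the cythera range at 6, beyond it at 3, between the groups at 14, within the rosina range at 6 and beyond that at 1. Among the 20 lower in cythera it lay within the cythera range at 13, beyond it at 2, between at 4 and within rosina at 1. Of all 1796 genes whose groups did not overlap it was nearer to cythera at 67.7%, within the cythera range at 49.3% and within the rosina range at 18.4%. It therefore matched neither group at every locus. In the fit with individual 13 as labelled, 38 of the 50 genes were tested, and 26 had an unadjusted p under 0.05, against 7.99% of all genes tested in that fit. The 50 genes were chosen on the same libraries without individual 13. Their larger share is therefore no independent test of the list.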

How the data were processed

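Raw counts per gene, as whole numbers not scaled for depth, were deposited by the authors. Reads came from a TruSeq Stranded mRNA kit. The submitters' processing notes name Trimmomatic 0.38, HISAT2 2.1.0, SAMtools 1.9, StringTie 1.3.5 and edgeR. The genome build and the counting settings were not given in the sources used here. All 30720 rows named a locus, 0 columns were left unused, and 0 IDs matched the 15508 genes of the RefSeq table of assembly ASM5695672v1.

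For the tests, edgeR 4.0.16 and limma 3.58.1 were run in R 4.3.3, with DESeq2 1.42.0 as an alternative. Plots were made in matplotlib 3.10.9 (Python 3.11.15). Genes kept by filterByExpr (minimum count 10) were normalised by TMM and tested with the quasi-likelihood F-test in its earlier form, as in the study, at an FDR under 0.05 over all genes tested. Positive log2 fold changes mean higher in cythera, and standard errors were derived from the F statistic. The interaction with wing region used individuals as a block, since both libraries with one number are of one animal. Libraries with the same subspecies label differed far beyond sampling noise (chi-square per degree of freedom 123.3 to 297.7, median 195.6, over 12 pairs). These include the pairs of individual 13 with rosina (172.1 to 297.7), and pairs without it had 123.3 to 284. The fits were tested on simulated data. Individual 13 was left out because the study removed a rosina individual as mislabelled, without its number in the sources used here, and because it lay with cythera in the MDS.

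Genes named were MSTRG.3173, the 12 in each direction with the smallest p among DE genes with groups that did not overlap (at least 4 annotated), the 5 hand-named rows with the smallest p, the top genes of both interactions, up to 4 DE genes whose cythera sexes did not overlap, and the 3 DE genes with the highest mean CPM. Members, lists and tests were chosen with earlier results of these data known. Alternatives were individual 13 as labelled, RLE size factors, DESeq2, other filters, the newer and robust fits, a sex term, males or cythera females only, all anterior libraries in one fit, no block, other gene numbers in the MDS and each library left out.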

Additional observations from a re-analysis of the deposited data

Results flagged for a closer look

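Of 40 groups of values examined, 7 held a library far from the others of its group by Dixon's test, where chance gives about 2. In cythera, MSTRG.11303 was low in individual 9 (1.85 CPM, against 3.80 to 4.28 in the others), and MSTRG.12141 (HmGr52_1) was low in individual 12 (0.207 CPM). Individual 10 was high at MSTRG.18837 (25.8 CPM) and low at MSTRG.24682 (0.183 CPM). The remaining genes had single reads in a group otherwise at 0, at MSTRG.19343 in individual 12 (0.0345 CPM) and at MSTRG.4678 in individual 11 (0.0354 CPM). In such a group the test flags a lone read whatever its level. On dimension 1 of the MDS, individual 13 stood apart from the other animals labelled rosina, at 0.888, which was known beforehand. The 7 flags therefore do not measure an excess over chance.

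The library of individual 13 entered no comparison of the report other than those that name it. It exceeded every rosina library at 23 of the 30 genes that were higher in cythera. The same share over all genes tested is not given here. Over all genes tested, individual 13 was nearer to the cythera mean on the log2 scale at 57.0%.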

How the results depend on the processing

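The count of 50 DE genes depended on the method. It was 0 with individual 13 as labelled, 868 with DESeq2, 253 with edgeR's newer quasi-likelihood fit, 28 with robust dispersions and 0 with at least 10 counts in every library. It was 7 with a sex term, 3 in males only, 26 with cythera females only, 111 with all anterior libraries in one fit, and 9 to 30 with single libraries left out. RLE size factors gave 48 and no filter gave 34. None of the 50 genes changed direction in a fit that tested it. Only 38 of them were tested with individual 13 as labelled, and 14 with at least 10 counts in every library. For fits of fewer libraries the direction was fixed by groups that do not overlap. Both DESeq2 and the newer fit called all 50. With individual 13 as labelled, the forewing and posterior hindwing gave 0 DE genes in place of 31, and the interaction with stage gave 1 in place of 0. On dimension 1 of the MDS over all genes, where all positions shrank, individual 13 was at 0.267 in place of 0.888 and again within the cythera range. The interaction with wing region, paired within animals, called 0 genes with the replicate block and 0 without it. Nothing here tests why these counts differ: the cause was not tested. With 4 and 3 libraries, a stock from one place each and sexes unequal between the groups, the list at one threshold is imprecise, and loci near the floor of 3 counts a library are measured least well.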
